A study of Danio rerio with 48 samples.

Results

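Arrestins are the proteins that end the light response of a photoreceptor: they bind opsin once light has activated it and a kinase has phosphorylated it, and so keep it from signalling further to transducin. Zebrafish carry a pair of rod arrestin genes, saga and sagb, which encode S-antigen, and a pair of cone arrestin genes, arr3a and arr3b. arr3a is known from red and green double cones, where its protein is the zpr-1 antigen, and arr3b from blue and UV cones. All 4 were chosen by gene name, and each is listed among the 15245 genes of the transcriptome of retinas kept in chronic low light (CLL), a slow photoreceptor damage model. They lie on 4 different chromosomes in the GRCz12tu annotation.

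The fish were adult albino zebrafish, 6 to 9 months old, raised on 14 h of light at 250 lux and 10 h of dark. All of them, the controls included, were first kept in the dark for 24 h. The light groups then stayed under halogen lamps at about 5000 lux without a dark phase, and retinas were taken at 24, 36 and 72 h post light onset (hpl) and at 5, 10, 14 and 28 days post light onset (dpl). The 0 h group was taken at the end of the dark period, so it is a dark-adapted baseline and not a retina in ordinary housing light. Each library came from the whole left retina of 1 fish by 3′ mRNA-seq, with 6 libraries at each of 8 time-points. The names in the sample labels divide these into 2 sets of 3 per time-point (library set 1 and library set 2). The study treated fish in 2 rounds of 3 per time-point, but neither labels nor column names say that a set is a round. The dissection can carry over some pigment epithelium.

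The deposited values are edgeR pseudocounts, which have nearly the same total in every library (1629375 to 1634449 here). Depth per library can therefore not be read from them, and all errors below are the spread between retinas. Between 1243 and 3729 genes stood at 0 in a library, with more than 2000 such genes in 2 of 24 libraries of set 2 and in 21 of 24 of set 1. For 2 of the 0 h libraries, called library A of set 1 and library A of set 2, the match to the sample labels was to the group and not to a replicate number. Their set was read from a suffix in the column name that every other column of set 2 carries and no other column of set 1, but the sample labels put the same suffix on set 1, so these 2 sets may be exchanged. Rod markers (rho, gnat1) and cone markers (gnat2, pde6c, arr3a) were present in every library, and the summed lens markers did not exceed 14.9 pseudocounts at any time-point. The summed signal of 8 pigment epithelium markers had medians of 12574 to 19388 pseudocounts at the light time-points against 6079 at 0 h. Of these markers, ttr stood at 0 in all 0 h libraries, and 3 to 5 of 7 tested were higher in light. The summed microglia markers had medians of 370 at 72 hpl and 441 to 602 from 5 dpl on, against 182 at 0 h. Of 5 tested, 0 were higher at 24 hpl, 1 at 36 hpl, 2 at 72 hpl and 2 to 5 later. Over all tested genes 5.59% to 9.66% were higher, by light time-point. The part of these other cells in the values below was not tested.

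In the first day of light the signal of all 4 arrestins rose. arr3a spanned 9147 to 22042 pseudocounts at 24 hpl with a median of 15690, against 3494 to 7441 with a median of 5221 at 0 h. arr3b spanned 1370 to 5949 at 24 hpl (median 3680), against 708 to 960 at 0 h (median 889). saga spanned 1066 to 2769 at 24 hpl (median 1390), against 316 to 961 at 0 h (median 401). For these 3 genes every one of the 6 retinas at 24 hpl lay above every 0 h retina. The share of all tested genes that separate in this way was not computed, here or for later counts of retinas beyond those at 0 h. sagb overlapped: it spanned 1076 to 4308 at 24 hpl (median 1601), against 647 to 1939 at 0 h (median 1036), and only 2 retinas lay above all of 0 h.

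**Figure D1:**
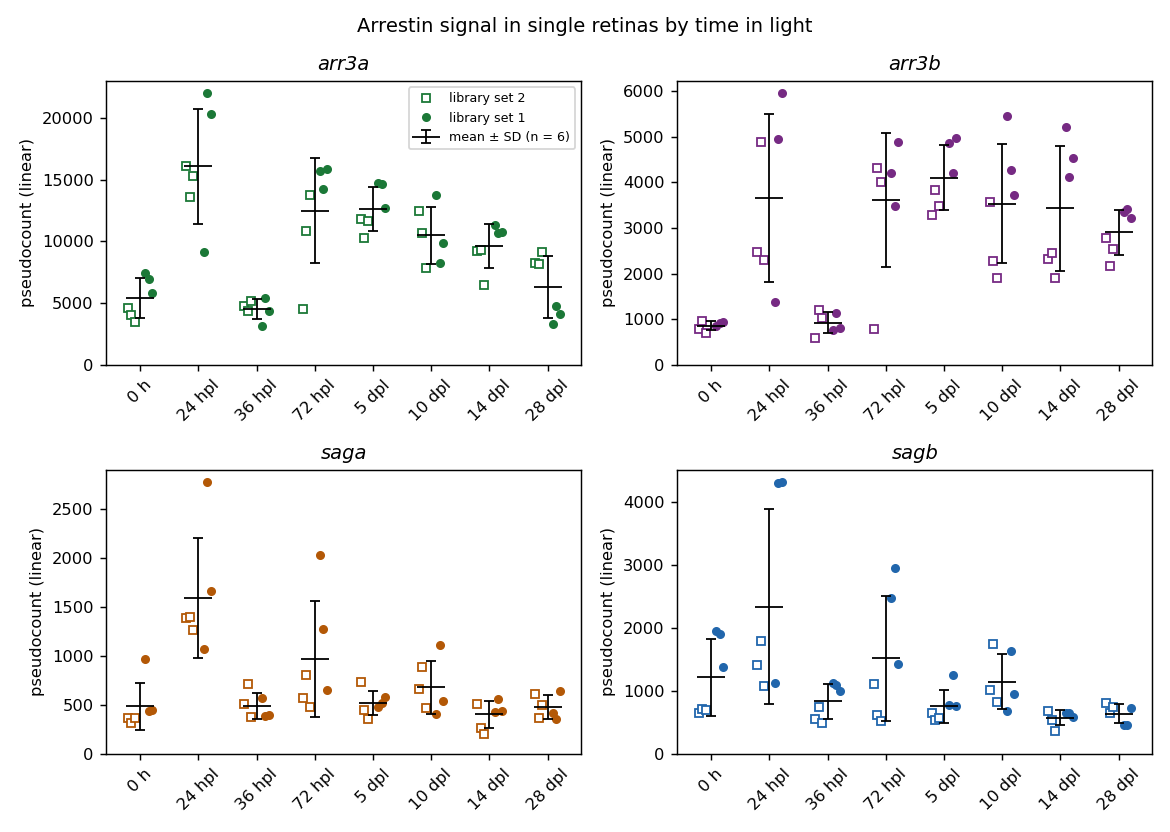
Pseudocounts of the 4 arrestins in each of 48 retinas (points, open squares for library set 2 and filled circles for library set 1) by time in light, with the mean and SD of 6 retinas at each time-point. All 4 genes are high at 24 hpl and back near 0 h at 36 hpl, and arr3b stays above its 0 h retinas from 5 to 28 dpl.

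The change was tested with limma on log2(pseudocount + 1) over 11395 genes, with library set in the model and Benjamini-Hochberg adjustment within each comparison. At 24 hpl all 4 arrestins were called higher, where 8.37% of all tested genes were higher and 7.14% lower. The log2 fold change was 1.91 for arr3b (SE 0.28, adjusted p = 9.02e-07), 1.76 for saga (SE 0.27, adjusted p = 2.57e-06), 1.57 for arr3a (SE 0.24, adjusted p = 2.80e-06) and 0.86 for sagb (SE 0.30, adjusted p = 0.0434). In mean pseudocounts these were 4.24-fold, 3.30-fold, 2.97-fold and 1.93-fold of the 0 h means. The sagb call depended on single libraries and on the model: in library set 1 alone its log2 fold change was 0.68 (adjusted p = 0.274), without a library set term its adjusted p was 0.102, and it lost its call without any 1 of 8 libraries (24 hpl replicates 2, 3, 4 and 5, and from 0 h replicates 3, 5 and 6 and the set 2 library A; adjusted p 0.0556 to 0.134). From the RNA of whole retinas alone, a change in the number of cells of a type and a change in RNA per cell cannot be told apart. The study counted cones in sections of the right eyes and found no significant difference in their number between time-points. It also reported a slow loss of nuclei from the outer nuclear layer, most of which are rod nuclei. The part of cell number in the RNA values was not tested here.

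At 36 hpl the rise was gone. arr3a spanned 3124 to 5417 pseudocounts (median 4596) at 36 hpl, arr3b 598 to 1212 (median 920), saga 378 to 707 (median 449) and sagb 492 to 1124 (median 871). With both sets together, each of these ranges overlaps that of 0 h. Against the 0 h retinas of their own set as named, 5 of 6 sagb retinas lay below all and 1 above all. For arr3a 3 lay below and 2 above, for arr3b 3 and 3, and for saga 2 and 3. None of the 4 genes was called against 0 h in either direction, and 0 of 4 had an unadjusted p under 0.05 in the limma fit, while 9.66% of all tested genes were higher and 3.8% lower. The 95% intervals of the log2 fold change at 36 hpl ran from -0.71 to 0.27 for arr3a, -0.50 to 0.63 for arr3b, -0.46 to 0.63 for saga and -1.05 to 0.15 for sagb, so a change of the size seen at 24 hpl lies outside each of them.

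Compared directly in the same limma fit, all 4 arrestins were lower at 36 hpl than at 24 hpl, where 6.52% of all genes were lower and 13.8% higher. The log2 difference was -1.84 for arr3b (adjusted p = 1.51e-06), -1.79 for arr3a (1.35e-07), -1.67 for saga (5.50e-06) and -1.31 for sagb (9.82e-04). From 36 to 72 hpl 3 of the 4 rose again, against 3.59% of all genes higher and 4.88% lower: arr3b by 1.80 (adjusted p = 4.08e-06), arr3a by 1.37 (4.62e-05) and saga by 0.83 (0.0457), with sagb at 0.65 (0.204). For saga this call was lost without any 1 of 7 libraries (72 hpl replicates 1, 2 and 5 and 36 hpl replicates 1, 2, 3 and 6; log2 difference 0.60 to 0.85, adjusted p 0.0575 to 0.214). In set 2 alone, which holds 72 hpl replicate 4, the log2 difference was 1.39 for arr3b (adjusted p = 0.0588), 0.88 for arr3a (0.0933) and 0.22 for saga (0.844). The time-point of 36 hpl is the only one that is not a whole number of days after light onset, so hour of the day and time in light cannot be told apart there.

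**Figure D2:**
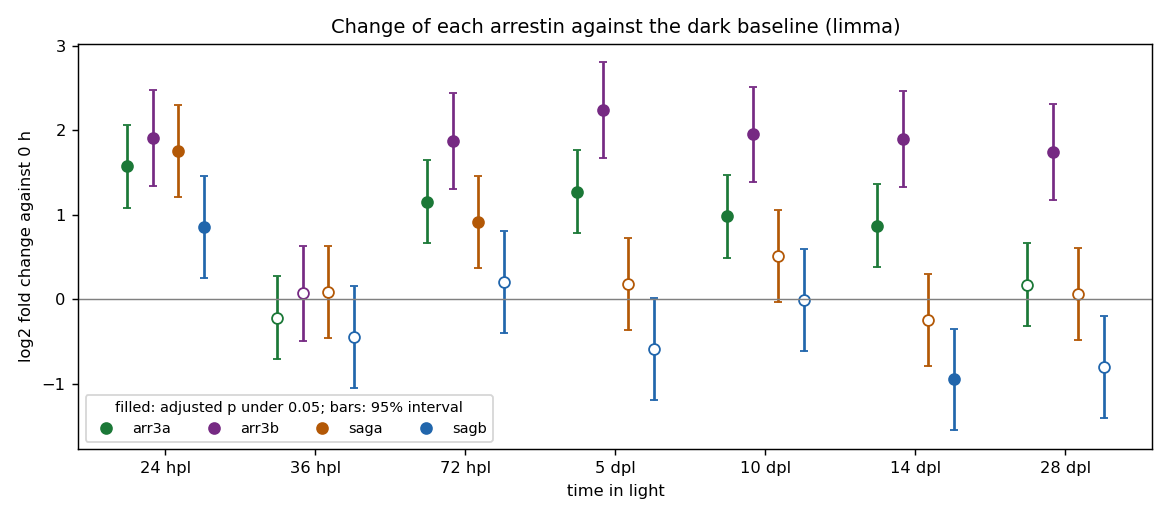
Log2 fold change of each arrestin at each light time-point against 0 h from limma (points, filled where the adjusted p was under 0.05) with its 95% interval (bars). Of 28 tests, all against the same 6 retinas at 0 h, 14 were called higher and 1 lower, and 36 hpl is the only time-point with no call. Among all tested genes 5.59% to 9.66% were higher and 1.51% to 7.14% lower, by time-point.

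From 72 hpl the cone arrestins were high again, arr3b up to the last time-point and arr3a up to 14 dpl. arr3b was called higher at 6 of 7 light time-points and arr3a at 5 of 7. For arr3b the log2 fold change against 0 h was 1.87 at 72 hpl (adjusted p = 1.67e-06) and 2.24 at 5 dpl (4.51e-08), each with an SE of 0.28. It then kept to 1.95 at 10 dpl (adjusted p = 1.32e-06), 1.90 after 14 days (2.23e-06) and 1.74 after 28 days (8.61e-06). In single retinas the lowest of 24 arr3b values from 5 to 28 dpl was 1902 pseudocounts, above the highest of 12 values at 0 h and 36 hpl, 1212. These values leave out 72 hpl, where 5 of 6 retinas lay above all of 0 h and replicate 4, at 778, lay within its range. How many of all tested genes separate in this way was not computed. By log2 fold change arr3b ranked 74 of 11395 genes at 5 dpl, its highest rank. At 36 hpl it ranked 6385, and at the other light time-points 90 to 191.

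The gain of arr3a was smaller and not called at the last time-point. Its log2 fold change was 1.15 at 72 hpl (adjusted p = 5.46e-04), 1.27 at 5 dpl (1.77e-04) and 0.98 at 10 dpl (0.00552), each with an SE of 0.24. By 14 dpl it was 0.87 (adjusted p = 0.0165) and by 28 dpl 0.17 (0.735), a value that the library sets do not share: in set 2 alone arr3a was still called higher at 28 dpl (1.08, adjusted p = 0.0166), and in set 1 it was -0.74 (0.0797). The 14 dpl call is lost without 0 h replicate 6 (log2 fold change 0.76, adjusted p = 0.0576), and in library set 1 alone neither the 10 dpl value of 0.63 (adjusted p = 0.172) nor the 14 dpl value of 0.70 (0.134) was called. At 28 dpl against 5 dpl the log2 difference of arr3a was -1.10 (adjusted p = 0.00913), where 0.834% of all genes were lower and 0.544% higher, but in set 2 alone it was -0.40 (0.504). The other 3 arrestins were not called in that comparison, with -0.50 for arr3b (0.455), -0.12 for saga (0.916) and -0.22 for sagb (0.836).

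Against 0 h, 3 of the 4 arrestins were higher at 72 hpl, where 9.2% of all tested genes were higher and 5.7% lower. At 5 dpl 2 arrestins were higher, beside 6.49% of genes higher and 2.09% lower, and at 10 dpl again 2, beside 6.41% higher and 1.51% lower. By 14 dpl 2 were higher and 1 lower, beside 5.59% of genes higher and 2.31% lower. After 28 days 1 was higher, beside 7.74% of genes higher and 3.26% lower. Between neighbouring time-points from 72 hpl on, 0 of 16 tests of an arrestin were called by limma, with adjusted p of 0.164 to 0.955 and 5 of 16 at an unadjusted p under 0.05. The share of all genes under that unadjusted threshold was not computed. Few genes of any kind were called in those steps: 0.0702% higher and 0.00878% lower at 5 dpl against 72 hpl, 0.0351% and 0% from 5 to 10 dpl, 0.0176% and 0.228% from 10 to 14 dpl, and 0% in both directions in the last step. The decline of arr3a was called over the span from 5 to 28 dpl and not in a single step.

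Neither rod arrestin was called higher than at 0 h from 5 dpl on. saga was called higher at 72 hpl with a log2 fold change of 0.92 (SE 0.27, adjusted p = 0.0157), where it spanned 476 to 2027 pseudocounts (median 725). Its size was 0.78 in set 2 and 1.06 in set 1, neither called alone (adjusted p = 0.151 and 0.0924). The call rests on single libraries: without 72 hpl replicate 1 the log2 fold change was 0.69 (adjusted p = 0.0824), and without replicates 1 and 2, whose rho was also high, it was 0.50 (0.285). From 5 dpl on saga was not called: its log2 fold change was 0.18 by then (adjusted p = 0.829), 0.51 after 10 days (0.306), -0.24 after 14 days (0.656) and 0.06 after 28 days (0.926). At 28 dpl its 6 retinas spanned 352 to 637 pseudocounts (median 456), against 316 to 961 (median 401) at 0 h.

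sagb was the only arrestin called lower in light. Its log2 fold change was -0.95 at 14 dpl (SE 0.30, adjusted p = 0.0377) and -0.80 at 28 dpl (SE 0.30, adjusted p = 0.0754). Before that it was not called after 24 hpl, with 0.20 at 72 hpl (adjusted p = 0.725), -0.59 after 5 days (0.281) and -0.01 after 10 days (0.992). At 14 dpl it spanned 353 to 674 pseudocounts (median 611), against 647 to 1939 (median 1036) at 0 h. Here 5 of 6 retinas lay below all of 0 h, and the share of all tested genes with such a separation was not computed. The 14 dpl call was lost without a library set term (adjusted p = 0.101), in library set 2 alone (-0.44, 0.376), and without any 1 of 7 libraries (14 dpl replicates 1, 2, 3 and 6, and from 0 h replicates 2 and 3 and the set 1 library A; adjusted p 0.0595 to 0.104). At 28 dpl the fall passed the threshold without 28 dpl replicate 4 (-0.95, adjusted p = 0.0399). With the sets as named, the 0 h retinas of the 2 sets are far apart for this gene, at a mean of 682 ± 30.4 pseudocounts in set 2 and 1738 ± 319 in set 1 (SD, n = 3 each).

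Ordered by mean, arr3a was highest at 24 hpl with 16074 ± 4655 pseudocounts, then at 5 dpl (12643 ± 1759), 72 hpl (12497 ± 4282), 10 dpl (10495 ± 2318), 14 dpl (9641 ± 1757), 28 dpl (6304 ± 2516), 0 h (5404 ± 1609) and 36 hpl (4536 ± 810; SD, n = 6 each). The step between 14 and 28 dpl is the only one between neighbours in this order that exceeds the larger of the 2 SDs. arr3b was highest at 5 dpl with 4104 ± 706, followed by 24 hpl (3654 ± 1836), 72 hpl (3614 ± 1460), 10 dpl (3532 ± 1302), 14 dpl (3427 ± 1372), 28 dpl (2907 ± 496), 36 hpl (926 ± 237) and 0 h (863 ± 96.9). Among neighbours in this order, only the gap between 28 dpl and 36 hpl exceeds the larger of the 2 SDs. Time-points further apart in the order, such as 5 and 28 dpl, were not compared in this way.

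saga was highest at 24 hpl with 1589 ± 610 pseudocounts, then 72 hpl (965 ± 591), 10 dpl (677 ± 271), 5 dpl (518 ± 126), 36 hpl (489 ± 133), 0 h (482 ± 239), 28 dpl (479 ± 124) and 14 dpl (401 ± 140). Here only the gap from 24 to 72 hpl exceeds the larger SD. sagb ran from 24 hpl (2334 ± 1545) through 72 hpl (1513 ± 995), 0 h (1210 ± 613), 10 dpl (1139 ± 435), 36 hpl (832 ± 276), 5 dpl (751 ± 259) and 28 dpl (635 ± 149) to 14 dpl (571 ± 118), with no neighbours further apart than the larger SD. The 4 arrestins together made up 1.45% ± 0.493 of the library signal at 24 hpl and 0.632% ± 0.136 at 28 dpl, against 0.488% ± 0.149 at 0 h. Pseudocounts are not divided by transcript length, so the share of one gene in a pair is read for its change and not as a share of molecules.

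At most light time-points the arrestins changed by other amounts than rho and gnat2, which act in the same cells. The direction was not always opposite: sagb and rho were both called lower at 14 dpl. rho, the rod opsin that saga and sagb bind, averaged 48.2%, 70.7% and 38.4% of its 0 h mean at 24, 36 and 72 hpl, and 21.9%, 38.6%, 20.6% and 26.2% at 5, 10, 14 and 28 dpl. gnat2, the transducin alpha subunit of cones, averaged 31.8%, 11.3% and 33.9% of its 0 h mean at 24, 36 and 72 hpl, and 52.5%, 47.4%, 60.4% and 59.0% at 5, 10, 14 and 28 dpl. In limma, rho (log2 fold change -1.09, adjusted p = 0.00421) and gnat2 (-1.68, 4.64e-05) fell at 24 hpl, where the arrestins rose, and at 36 hpl gnat2 was at its lowest while the cone arrestins were near their 0 h level. Other cone genes did not follow gnat2 at every time. pde6c, the catalytic subunit of the cone phosphodiesterase and named here after its values were seen, had a log2 fold change of -0.27 at 24 hpl (adjusted p = 0.544), -3.78 at 36 hpl (8e-16), -0.60 at 72 hpl (0.119) and -0.08 at 5 dpl (0.935). It was not called at 10 dpl (-0.74, adjusted p = 0.0731) or 14 dpl (-0.60, 0.165) and was lower at 28 dpl (-1.01, 0.0066). pde6h, an inhibitory subunit of that enzyme, was called at 36 hpl alone of the 7 time-points (-2.09, adjusted p = 2.11e-08; the others -0.57 to -0.04). The cone ratios below hold for gnat2 and were not computed for these genes.

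**Figure D3:**
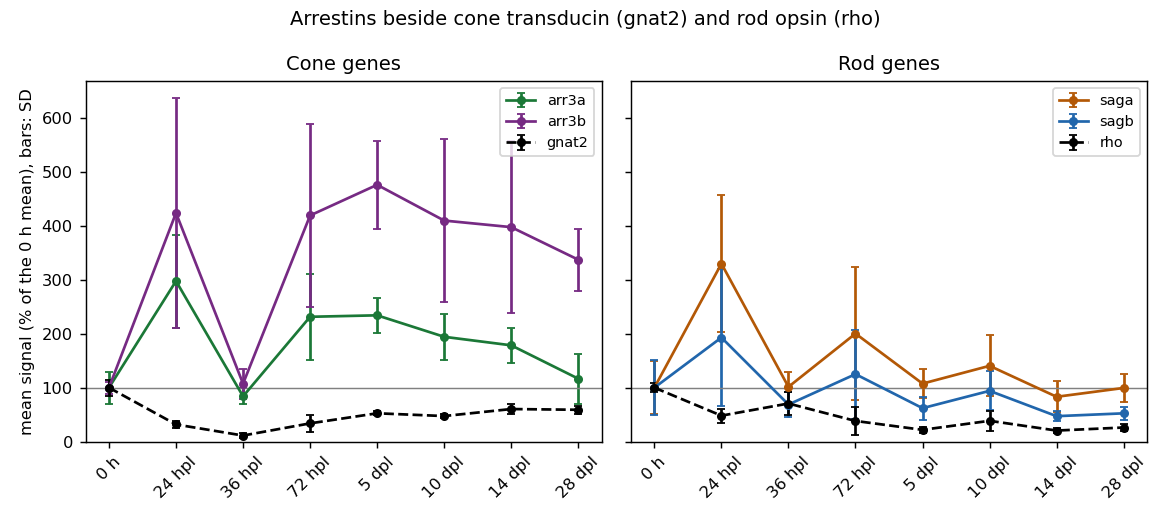
Mean pseudocounts as a percentage of the 0 h mean (bars: SD of 6 retinas) for the cone arrestins with gnat2 and for the rod arrestins with rho, by time in light. gnat2 and rho lie under 100% at each light time-point, while arr3b lies between 397% and 476% at 24 hpl and from 72 hpl to 14 dpl.

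A ratio within a retina shows such unequal change whatever the common scale. For 6 ratios and 7 time-points, 42 exact permutation tests within library sets were run against 0 h (two-sided, 400 splits, smallest possible p 0.005, which adjusts to 0.0075). saga over rho was higher by 2.85 in log2 units at 24 hpl, by 2.53 at 72 hpl, and by 2.39, 2.02, 2.07 and 2.03 at 5, 10, 14 and 28 dpl, each with adjusted p = 0.0075 and with 6 of 6 retinas above every 0 h retina. sagb over rho was higher by 1.95, 1.82, 1.63, 1.51, 1.36 and 1.17 at the same times, also with adjusted p = 0.0075 and 6 of 6. The exception for both was 36 hpl, where the difference was 0.63 for saga over rho (adjusted p = 0.0608) and 0.09 for sagb over rho (0.505); without 0 h library A of set 1, saga over rho was called there too (0.85, adjusted p = 0.00724). Thus saga, not called against 0 h from 5 dpl on, was high relative to the rod opsin, which was called lower.

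For the cones, arr3b over gnat2 was higher than at 0 h by 3.58, 3.31 and 3.75 log2 units at 24, 36 and 72 hpl, and by 3.16, 3.02, 2.62 and 2.50 at 5, 10, 14 and 28 dpl (adjusted p = 0.0075 and 6 of 6 retinas each time, exact permutation test). arr3a over gnat2 was higher by 3.25, 3.02, 3.03, 2.19, 2.05 and 1.59 up to 14 dpl with the same adjusted p. At 28 dpl its difference was 0.93 (adjusted p = 0.07), with 2.02 in set 2 and -0.16 in set 1, and it was called with the sets of the 0 h libraries A exchanged (adjusted p = 0.0292). Both cone ratios thus stayed above 0 h at 36 hpl, where the cone arrestins themselves were back near their 0 h level and gnat2 averaged 11.3% of its own. Not all cone genes fell there. Of 25 tested cone cascade genes, 0 were higher and 9 lower at 36 hpl (median log2 fold change -0.70), beside 9.66% and 3.8% of all tested genes. gnat2 was 1 of the 9 that were lower. The ratios at 36 hpl were not computed for the other cone genes and therefore do not describe cone genes in general.

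**Figure D4:**
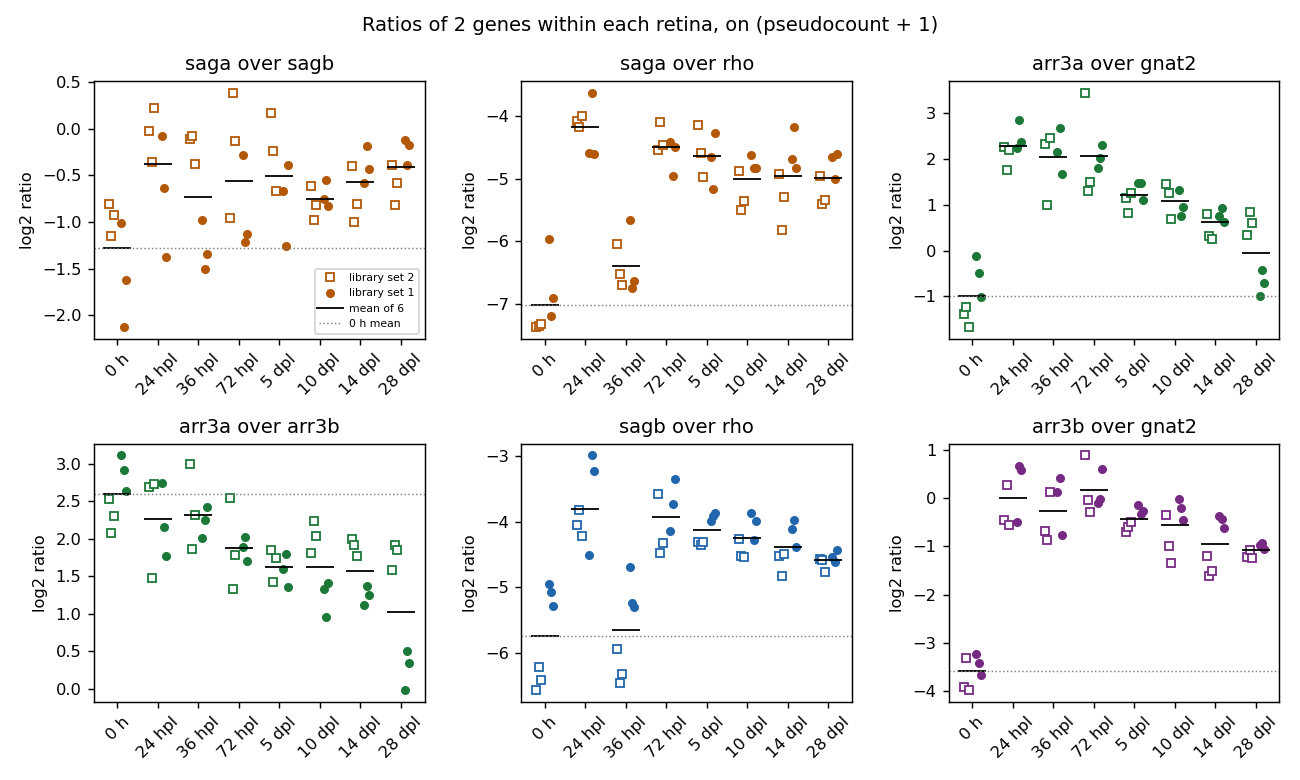
Log2 ratio of (pseudocount + 1) of 2 genes in each retina (open squares: library set 2, filled circles: library set 1) by time in light, with the mean of 6 (line) and the 0 h mean (dotted). saga over rho and both cone ratios over gnat2 are above 0 h at most time-points, arr3a over arr3b falls below it, and sagb over rho at 36 hpl lies at the 0 h mean.

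Within each pair the copies changed by unequal amounts. arr3a over arr3b was lower than at 0 h by exact permutation at 72 hpl (-0.72 log2 units, adjusted p = 0.0247), 5 dpl (-0.97, 0.0075), 10 dpl (-0.97, 0.0135), 14 dpl (-1.03, 0.0075) and 28 dpl (-1.57, 0.0075), but was not called at 24 hpl (-0.34, 0.252) or 36 hpl (-0.29, 0.266). Without 72 hpl replicate 5 the difference at 72 hpl was -0.61 (adjusted p = 0.0525), and without both 0 h libraries A it was also -0.61 (0.0754). At 28 dpl the shift was -0.52 in set 2 and -2.62 in set 1, and at each other time-point too it was the smaller in set 2; this difference was not tested. arr3b made up 33.9% ± 12.8 of the summed signal of the cone pair at 28 dpl, against 14.4% ± 3.25 at 0 h (SD, n = 6 each).

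saga over sagb shifted towards saga, by 0.90 log2 units at 24 hpl (adjusted p = 0.0135) and 0.54 at 36 hpl (0.0292), and later by 0.77 after 5 days (0.0197), 0.52 after 10 (0.0292), 0.71 after 14 (0.0247) and 0.87 after 28 (0.0135). The shift of 0.72 at 72 hpl was not called (adjusted p = 0.0568). The late shifts were larger in set 1: 0.16 in set 2 and 0.88 in set 1 at 10 dpl, 0.23 in set 2 and 1.19 in set 1 at 14 dpl, and 0.37 in set 2 and 1.36 in set 1 at 28 dpl. At 5 dpl they were 0.72 in set 2 and 0.81 in set 1, and the difference between sets was not tested for this ratio. Between 3 and 5 of 6 retinas lay above every 0 h retina. Leaving out 1 library took the call away at 36 hpl (0 h replicate 2 or 3, or 36 hpl replicate 4, 5 or 6), 5 dpl (replicate 4 or 5), 10 dpl (replicate 1, 2, 3, 4 or 6) and 14 dpl (replicate 4), with differences of 0.37 to 0.71 and adjusted p of 0.0525 to 0.14. At 72 hpl it gave a call (0.80 to 0.85 without replicate 2, 3 or 4). saga made up 43.0% ± 4.37 of the summed signal of the rod pair at 28 dpl, against 29.7% ± 6.79 at 0 h. How reads that fit both copies of a pair were counted is not given in the sources used here, so the division between copies is less certain than the sum.

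At 28 dpl the library sets disagreed for arr3a and sagb. In set 2 arr3a had 8193, 8286 and 9139 pseudocounts at 28 dpl, against 3494, 4064 and 4594 at 0 h. In set 1 it had 3306, 4088 and 4811 at 28 dpl, against 5847, 6984 and 7441 at 0 h. With the sets as named, they moved in opposite directions without overlap: the log2 fold change was 1.08 in set 2 and -0.74 in set 1, a difference of 1.82 (SE 0.39, adjusted p = 0.0188 in limma with a time-point by set interaction). The value of 0.17 for both sets together describes neither of them.

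In set 2 sagb had 639, 742 and 800 pseudocounts at 28 dpl, against 647, 698 and 701 at 0 h. In set 1 it had 450, 460 and 718 at 28 dpl, against 1371, 1905 and 1939 at 0 h. Its log2 fold change was 0.09 in set 2 and -1.69 in set 1 (difference 1.78, SE 0.49, adjusted p = 0.0419 in the limma interaction). For arr3b the difference between sets at 28 dpl was -0.27 (SE 0.56, adjusted p = 0.861) and all retinas of both sets lay above their own 0 h group. For saga it was 0.79 (SE 0.53, adjusted p = 0.446). Over all genes, 2.85% differed between the sets at 28 dpl and at most 0.0351% at any earlier time-point, and of 28 such tests on the arrestins those of arr3a and sagb at 28 dpl were the only ones called.

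Both calls are lost when the sets of the 0 h libraries A are exchanged, which stand at 4594 pseudocounts of arr3a in the one named for set 2 and 7441 in the one named for set 1. After the exchange, a choice made after seeing the data, the change of arr3a at 28 dpl was 0.85 in set 2 and -0.51 in set 1 (difference 1.36, adjusted p = 0.0777 in the limma interaction), and 0 h and 28 dpl then overlap in set 1. For sagb it was -0.44 in set 2 and -1.17 in set 1 (difference 0.73, adjusted p = 0.572). With both libraries left out the difference was 1.85 for arr3a (adjusted p = 0.0237) and 1.66 for sagb (0.0956).

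**Figure D5:**
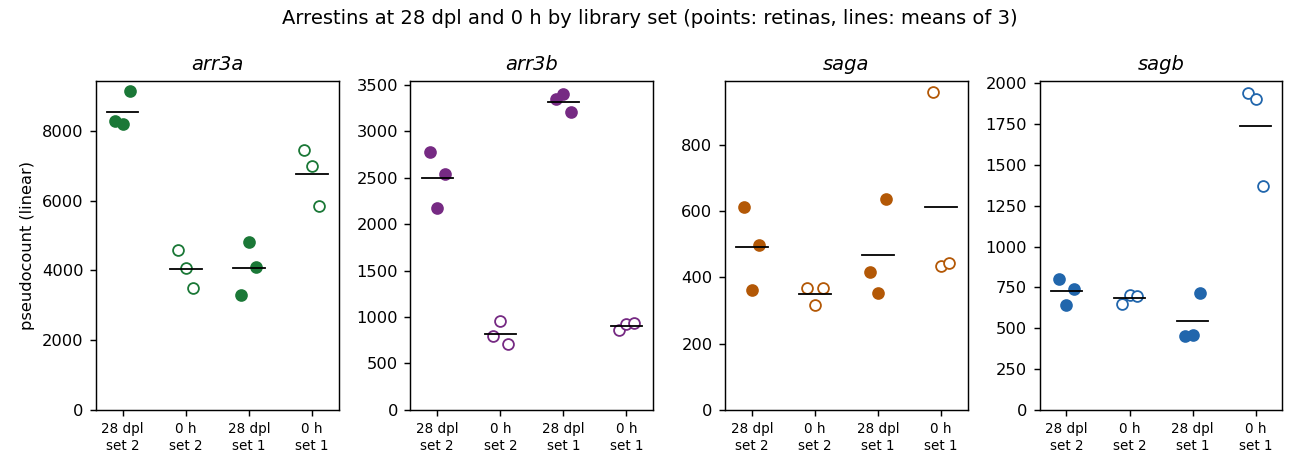
Pseudocounts of the 4 arrestins at 28 dpl (filled) and 0 h (open) in each retina, split by library set, with the mean of 3 (line). arr3a lies above 0 h in set 2 and below it in set 1, sagb overlaps 0 h in set 2 and lies below it in set 1, and arr3b lies above 0 h in both.

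Some retinas had the lowest value of their group in more than 1 arrestin. At 72 hpl replicate 4 had 4561 pseudocounts of arr3a and 778 of arr3b, in the range of 0 h, while the other 5 retinas had at least 10870 and 3489, and its gnat2 was also the lowest of its time-point at 422. At 24 hpl replicate 1 had the lowest arr3a (9147), arr3b (1370) and saga (1066) of its group, but none of these passed the outlier limit given below. With both of these retinas left out, a choice made after seeing the data, the log2 fold change of arr3a was 1.73 at 24 hpl and 1.41 at 72 hpl. That of arr3b was 2.20 and 2.23, and all were still called. In saga, 0 h library A of set 1 had 961 pseudocounts against 316 to 445 in the other 0 h retinas.

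Other genes that act at the same steps were mostly lower or not called. Among all tested genes 8.37% were higher and 7.14% lower at 24 hpl, and 7.74% and 3.26% at 28 dpl. Of 13 shutoff partners (opsin kinases, recoverins and the RGS9 complex that switches transducin off), 12 were tested: 1 was higher and 4 lower (grk1b, grk7b, gnb5b and rcvrna) at 24 hpl, and 1 was higher and 8 lower at 28 dpl (median log2 fold change -0.87, against 0.03 over all tested genes). At 28 dpl the largest changes among these partners were those of rgs9bp, the membrane anchor of RGS9 (-2.13, adjusted p = 4.25e-05), and grk1a, a rod opsin kinase (-2.11, 0.0034). Both had low values: rgs9bp averaged 18.7 pseudocounts at 28 dpl and 71.1 at 0 h, and grk1a 9.41 and 48.7. The single higher partner at both times was rcvrn3, one of the recoverins, calcium-binding proteins that restrain opsin kinases. It had a log2 fold change of 2.81 at 24 hpl (adjusted p = 3.04e-13), -0.17 at 36 hpl (0.749) and 1.31 at 28 dpl (6.52e-05).

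The counts of rod and cone cascade genes stand beside the same shares of all tested genes (8.37% higher and 7.14% lower at 24 hpl, 7.74% and 3.26% at 28 dpl). Of 15 tested rod cascade genes, 0 were higher and 9 lower at 24 hpl, and 1 was higher and 13 lower at 28 dpl (median log2 fold change -2.04, against 0.03 over all tested genes), led by pde6a, the rod phosphodiesterase subunit (-3.22), and gnat1, rod transducin (-2.69). The gene that was higher, named after its value was seen, was nr2e3 (1.17), a transcription factor of rods. saga and sagb, at 0.06 and -0.80, are not on that list and lie above its median. Of 25 tested cone cascade genes, 2 (rcvrn3 and guca1c) were higher and 14 lower at 24 hpl (median -1.30, against -0.07). At 28 dpl 3 (opn1lw2, rcvrn3 and gngt2b) were higher and 5 (opn1mw3, opn1mw4, pde6c, grk1b and grk7b) lower (median -0.57), where the largest changes were those of the red opsin opn1lw2 (2.12) and the green opsin opn1mw3 (-1.80). arr3b at 28 dpl, at 1.74, differs in sign from the median of the cone list.

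Among 7 tested genes of the wider arrestin family, which work outside phototransduction, 3 were higher and 0 lower at 24 hpl (8.37% and 7.14% over all tested genes), and 1 was higher and 0 lower at 28 dpl (7.74% and 3.26%). Their median log2 fold change was 0.06 at 24 hpl, against -0.07 over all tested genes, and -0.06 at 28 dpl, against 0.03. The 3 at 24 hpl, named after their values were seen, were the alpha-arrestins arrdc3b (1.73), arrdc3a (1.72) and txnipa (1.41), and the one at 28 dpl was txnipa (1.11, adjusted p = 0.0386). The beta-arrestins and the remaining members tested were not called at either time.

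Over the 48 retinas, with the mean of each library set removed, the log2 values of the copies of a pair followed each other (Pearson r = 0.80 for saga with sagb and 0.76 for arr3a with arr3b). All points share the common scaling of the libraries and the same time course, so these values are descriptions. sagb had an r of 0.57 with rho and saga 0.29, while arr3b had -0.63 with rho. Apart from the arrestins themselves, the genes whose pattern was most like arr3b were unc119b (0.92), rcvrn3 (0.88) and xpc (0.87), and those most like arr3a were zgc:92818 (0.89), rcvrn3 (0.86) and rbp4l (0.86). For the rod arrestins the likeness was lower, with zgc:162144 (0.73), vps37a and asb5b (0.67 each) nearest to saga after sagb, and guca1b (0.76), gnb1b (0.70) and zgc:162144 (0.67) nearest to sagb after saga.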

How the data were processed

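Retinas of 48 fish were profiled by QuantSeq 3′ mRNA-seq, 6 at each of 8 time-points. Per the labels and the study's methods, the authors mapped single-end reads to the zebrafish build dR10 (STAR), obtained gene counts (HTSeq) and scaled them (edgeR), with versions not given in the sources used here. What the authors deposited are the resulting pseudocounts, a linear signal rather than counts, and a table of their means, which equals the means of these columns. The authors' own comparisons in the same workbook hold log2 fold changes, log2 of CPM, a likelihood ratio score, p-values and FDR, and were not used. Acute light and naïve libraries were not analysed here.

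Groups came from the sample labels. The library set of 2 of the 0 h columns, matched only to the group, was read from a suffix in the column name, which the sample labels use for the opposite set. Exchanging these sets and leaving both columns out were tried after seeing the data. Another 12 rows with symbols turned into dates (0.128% of the signal) were left out. The 11395 genes that reached 5 pseudocounts in 6 or more libraries were fitted with limma 3.58.1 in R 4.3.3 (eBayes with trend, 39 residual degrees of freedom) on log2(pseudocount + 1), which understates changes of low genes, with terms for time-point and library set, and calls were made at an adjusted p under 0.05. The median SE of a log2 fold change was 0.325 over all tested genes. The fit was tested on simulated data in which noise was independent between libraries and changes were equal in both library sets. Differences between sets, as seen at 28 dpl, were therefore not covered by it. Ratios were compared by exact permutation within library sets. Named besides the arrestins are rho and gnat2, the 2 largest called changes per list at 28 dpl and the 3 genes most correlated with each arrestin, the other arrestins left out; the other list members were named after their values were seen, as parts of small counts. The arrestins, lists and tests were chosen with earlier results of these data known. Alternatives were other pseudocounts, filters, scalings, weights and model terms, single library sets and leaving out each library.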

Additional observations from a re-analysis of the deposited data

Results flagged for a closer look

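In 32 groups of 6 retinas (4 arrestins at 8 time-points), 4 values lay further from their group than Dixon's critical value of 0.625 allows, a limit that chance passes in about 1 of 20 groups. These were arr3b in 72 hpl replicate 4, at 778 pseudocounts where the other retinas had 3489 to 4879; saga in 0 h library A of set 1, at 961 where the others had 316 to 445; saga in 24 hpl replicate 2, at 2769 where the others had 1066 to 1660; and sagb in 5 dpl replicate 2, at 1242 where the others had 529 to 764.

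The change at 28 dpl against 0 h differed between the library sets for 2 arrestins, by a log2 difference of 1.82 for arr3a and 1.78 for sagb (set 2 minus set 1, limma interaction, adjusted p = 0.0188 and 0.0419). With the sets of the 0 h libraries A exchanged the differences were 1.36 and 0.73 (adjusted p = 0.0777 and 0.572). What separates the sets was not tested.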

How the results depend on the processing

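For the 28 changes of an arrestin against 0 h, 1777 alternative values kept direction and call, 37 lost a call, 7 gained one and 27 changed sign. These values include leaving out each of 48 libraries for every change, also libraries of neither compared time-point. Such a library could hardly move the change, and none moved a call or sign. The 1777 is therefore not a measure of how firm the calls are. The changes of sagb depended most on the processing. At 24 hpl its call was lost with no filter on low values (log2 fold change 0.86, adjusted p = 0.0606), without a library set term (0.102), with eBayes without trend (0.0654), in set 1 alone (0.68), and by an unadjusted exact permutation test (p = 0.05), chosen after seeing the data; at 14 dpl with no filter (-0.95, adjusted p = 0.0550), without a set term (0.101), without trend (0.0605) and in set 2 alone (-0.44). It gained a call at 36 hpl (-0.45) and 5 dpl (-0.59) when only the libraries of the 2 time-points were fitted (adjusted p = 0.0291 and 0.0117) and by permutation (p = 0.02 and 0.01), and at 28 dpl in set 1 alone (-1.69).

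Exchanging the sets of the 2 0 h libraries A, chosen after seeing the data, took the calls of sagb at 24 hpl (0.86, adjusted p = 0.0632) and 14 dpl (-0.95, 0.0585) and of saga from 36 to 72 hpl (0.83, 0.0566). Leaving both out took those of sagb at 24 hpl (0.88, 0.0795) and 14 dpl (-0.93, 0.0992), turned sagb at 10 dpl (0.014) and gave calls to saga over sagb at 72 hpl (0.90, 0.0442), saga over rho at 36 hpl (0.81, 0.0233) and arr3a over gnat2 at 28 dpl (1.05, 0.0442).

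With the replicate number as a replicate block, sagb lost its calls at 24 hpl (0.91, adjusted p = 0.0622) and 14 dpl (-0.89, 0.0997) and its uncalled value at 10 dpl changed sign (0.046); no other call moved against 0 h. Same-numbered libraries did not deviate together (mean r 0.00534 over 154 pairs, against -0.0027 over 308 other pairs), so the numbers do not pair the retinas.

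saga at 72 hpl lost its call in set 1 alone (1.06), in set 2 alone (0.78) and without both first 72 hpl libraries (0.50), which turned sagb at 72 hpl to -0.23. arr3a lost its calls in set 1 alone at 10 dpl (0.63) and 14 dpl (0.70) and gained one in set 2 alone at 28 dpl (1.08). Uncalled values changed sign as follows. Under median-of-ratios and upper quartile rescaling, which shift the median gene at 36 hpl by -0.15 and -0.138, arr3b at 36 hpl was -0.093 and -0.081 and saga -0.073 and -0.060; saga at 36 hpl was -0.027 with array weights, and at 28 dpl -0.016 under median-of-ratios. In set 1 alone, arr3b (-0.021) and saga (-0.38) at 36 hpl, saga at 5 dpl (-0.13) and 28 dpl (-0.33) and arr3a at 28 dpl (-0.74) turned; in set 2 alone, arr3a at 36 hpl (0.25), sagb at 10 dpl (0.73) and 28 dpl (0.087), and sagb between 28 and 5 dpl (0.32). In set 2 alone arr3a (0.88), arr3b (1.39) and saga (0.22) were not called higher at 72 than at 36 hpl, nor arr3a lower at 28 than at 5 dpl (-0.40), and 2 of the 16 later steps were called. The rise of saga from 36 to 72 hpl was also lost with no filter, without a set term, without trend, with array weights, with the 2 time-points alone (adjusted p 0.0501 to 0.122) and without both first 72 hpl libraries (0.41). arr3b fell between 5 and 28 dpl when only these were fitted (-0.50, adjusted p = 0.0231). Permuting over all 12 libraries removed the call of saga over sagb at 36 hpl (0.54, adjusted p = 0.135) and gave one to arr3a over gnat2 at 28 dpl (0.93, 0.0480). The cause was not tested.

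Leaving out each library in turn gave ranges of 0.69 to 1.09 for sagb at 24 hpl, -1.07 to -0.84 at 14 dpl, -0.22 to 0.19 at 10 dpl and -0.95 to -0.64 at 28 dpl; 0.69 to 1.11 for saga at 72 hpl, -0.059 to 0.28 at 36 hpl, -0.049 to 0.26 at 28 dpl and -0.23 to 0.022 between 28 and 5 dpl; 0.76 to 0.97 for arr3a at 14 dpl; -0.068 to 0.16 for arr3b at 36 hpl; and -0.099 to 0.25 for sagb over rho at 36 hpl. Of the 8 shutoff partners lower at 28 dpl, 5 were lower by 2-fold or more. Depth per library is unknown, so counting error is part of the spread.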
